A study of Mus musculus with 32 samples.

Results

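Genes of mature skeletal muscle were followed through 32 mesothelioma tumors of mice by RNA-seq. The set was defined by name, as 43 genes that encode the contractile filaments, the Z disc, the calcium store, the fuel enzymes and the atrophy ligases of muscle fibers, and 38 of them had a row among the 39676 genes counted. The other 5, Myoz1, Myom1, Mb, Ldb3 and Fbxo32, are not analysed here. Of the 38 genes, 11 encode the form of a protein that fast fibers use, 8 encode the form that slow fibers use, and 19 are used by both. The tumors fell into 4 groups of 8. AB1 tumors were grown in BALB/c mice and AE17 tumors in C57BL/6 mice, and each of these murine mesothelioma lines was placed either in the pleural cavity (IPL) or in the subcutaneous space of the right flank (SC). All mice were female, 8 to 10 weeks of age and untreated, and tumors were taken on day 10. Whole tumors were sequenced after, by the study's methods, lungs and surrounding tissues had been removed. AB1 and AE17 differ at once in cell line, in mouse strain and in the number of cells inoculated, which by the study's methods was lower for AB1. These cannot be told apart.

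A muscle fiber is a single large cell filled with sarcomeres, in which thin filaments of actin slide past thick filaments of myosin when calcium, released from the sarcoplasmic reticulum, binds to troponin. Fast and slow fibers build the same machine from different gene copies, so that each troponin subunit, myosin light chain and calsequestrin has a fast and a slow form. The chest wall and the diaphragm border the pleural cavity, and a thin muscle sheet lies beneath the skin of the flank, while several slow forms are also made by heart muscle.

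Levels are given as CPM, which are counts scaled to the library size after TMM normalization, and a gene was called when the adjusted p of edgeR's quasi-likelihood test was under 0.05. Total counts ran from 15432258 to 20649645 per tumor, so that the detection limit used here, 3 counts, was worth 0.140 to 0.189 CPM in a single tumor. Each tumor is a replicate by its label, and nothing in the labels ties a number to a litter or a day. The 3 sequencing lanes were not shared out evenly. All 8 AB1 IPL tumors ran in lane 3 with 2 of the AB1 SC tumors, the other 6 AB1 SC tumors ran in lane 2, all 8 AE17 SC tumors ran in lane 1 with 3 AE17 IPL tumors, and the other 5 AE17 IPL tumors ran in lane 2. Whether counting used strand is not given in the sources used here, so that counts are uncertain for genes whose exons overlap another gene's, by 74.0% of exon length in Tnnc2 (Ube2c), 21.9% in Atp2a1 (Rabep2), 20.0% in Cacna1s and 15.5% in Ckm. In bulk RNA, fewer muscle fibers and less RNA per fiber cannot be told apart.

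The sequences upstream of 5 of the genes are shown because the results below turn on these members: Ckm and Acta1, which are used by both fiber types and of which Acta1 kept a high level where Ckm was nearly undetected, the fast and slow calsequestrins Casq1 and Casq2, and the slow troponin Tnni1. They are the 250 bases before the RefSeq start of each gene on GRCm38.p6. For Ckm and Tnni1 the GRCm38 annotation also holds transcripts that start farther upstream, so that these windows lie inside the annotated genes, which span chr7:19404776-19422841 and chr1:135779434-135810989. Capitals mark CAGCTG, which is an E-box of the kind that myogenic factors bind, the MEF2 motif, the CArG box and TATAAA, each searched on both strands. CAGCTG is 1 form of the general E-box CANNTG. Ckm lies on the plus strand at chr7:19410844-19411093, Acta1 on the minus strand at chr8:123894776-123895025, Casq1 on the minus strand at chr1:172219896-172220145, Casq2 on the plus strand at chr3:102086165-102086414 and Tnni1 on the plus strand at chr1:135799171-135799420. By the GRCm38 annotation Ckm is ENSMUSG00000030399.2, Acta1 is ENSMUSG00000031972.5, Casq1 is ENSMUSG00000007122.11, Casq2 is ENSMUSG00000027861.13 and Tnni1 is ENSMUSG00000026418.16, all protein-coding.
Ckm: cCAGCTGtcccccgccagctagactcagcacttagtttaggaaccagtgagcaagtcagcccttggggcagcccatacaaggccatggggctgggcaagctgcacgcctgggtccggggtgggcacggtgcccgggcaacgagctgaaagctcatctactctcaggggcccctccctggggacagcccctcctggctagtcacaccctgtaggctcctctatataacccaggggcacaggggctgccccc
Acta1: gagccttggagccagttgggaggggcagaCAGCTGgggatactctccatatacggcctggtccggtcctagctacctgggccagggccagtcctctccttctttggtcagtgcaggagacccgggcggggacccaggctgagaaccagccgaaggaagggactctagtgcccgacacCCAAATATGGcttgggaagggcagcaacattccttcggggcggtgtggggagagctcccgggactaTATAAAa
Casq1: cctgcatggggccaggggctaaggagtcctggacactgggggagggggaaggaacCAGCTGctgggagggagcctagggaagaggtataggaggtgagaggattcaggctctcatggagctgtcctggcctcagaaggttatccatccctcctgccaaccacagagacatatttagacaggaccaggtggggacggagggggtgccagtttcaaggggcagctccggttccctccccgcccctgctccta
Casq2: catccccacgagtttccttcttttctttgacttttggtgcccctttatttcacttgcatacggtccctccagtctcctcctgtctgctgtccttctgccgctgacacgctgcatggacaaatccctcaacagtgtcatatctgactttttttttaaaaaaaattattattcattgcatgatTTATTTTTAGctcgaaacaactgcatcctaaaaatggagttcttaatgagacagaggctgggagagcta
Tnni1: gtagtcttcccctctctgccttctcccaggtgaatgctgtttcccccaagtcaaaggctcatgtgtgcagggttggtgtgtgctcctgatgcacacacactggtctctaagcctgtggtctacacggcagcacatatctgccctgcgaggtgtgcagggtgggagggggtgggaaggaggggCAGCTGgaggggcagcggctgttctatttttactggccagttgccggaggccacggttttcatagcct

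CAGCTG began at -249 in Ckm, -221 in Acta1, -195 in Casq1 and -68 in Tnni1, counted from the start. Casq2 held no CAGCTG in this window and held a MEF2 motif at -69. Acta1 also held a CArG box at -73 and TATAAA at -7. Among the 30 members with an entry, 17 genes (56.7%) held CAGCTG within 250 bases upstream, against 14.7% of 27025 genes. The MEF2 motif was found in 6 of the 30 (20.0%), namely Casq2, Myoz2, Pgam2, Pvalb, Ttn and Xirp2, against 3.42% of all genes. The CArG box was found in Acta1 and Myl3 (6.67%), against 1.62% of all genes. TATAAA was found in 5 of the 30 (16.7%) and in 14.3% of all genes, and CANNTG in 28 (93.3%) and in 69.3%. These are matches of letters and not measured binding sites. Tnnt3, Tnni2, Neb, Mylk2, Myom2, Actn3, Tcap and Ampd1 had no entry.

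The 38 genes together took between 0.0124% and 0.808% of all counts of a tumor. In AB1 IPL tumors the share ran from 0.0204% to 0.808% (median 0.418%) against 0.0124% to 0.0843% in AB1 SC tumors (median 0.0510%). In AB1, 7 of the 8 IPL tumors, all but tumor 2, were above every AB1 SC tumor. In AE17 the share ran from 0.0205% to 0.136% in IPL tumors (median 0.106%) against 0.0195% to 0.172% in SC tumors (median 0.0947%), and the sites overlapped over almost their whole range. The low values of many genes fell in the same tumors within a group. AB1 IPL tumor 2 was the lowest of its group in 33 of the 38 genes. AB1 SC tumors 5 and 7 were among the 2 lowest of their group in 34 and 38 of the genes, AE17 IPL tumors 1 and 8 in 37 each, and AE17 SC tumors 1 and 4 in 35 and 34. In these 6 tumors, AB1 IPL tumor 2 not among them, 23 to 27 of the 38 genes reached 3 counts, whereas 36 to 38 did so in each of the other 26 tumors.

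**Figure D1:**
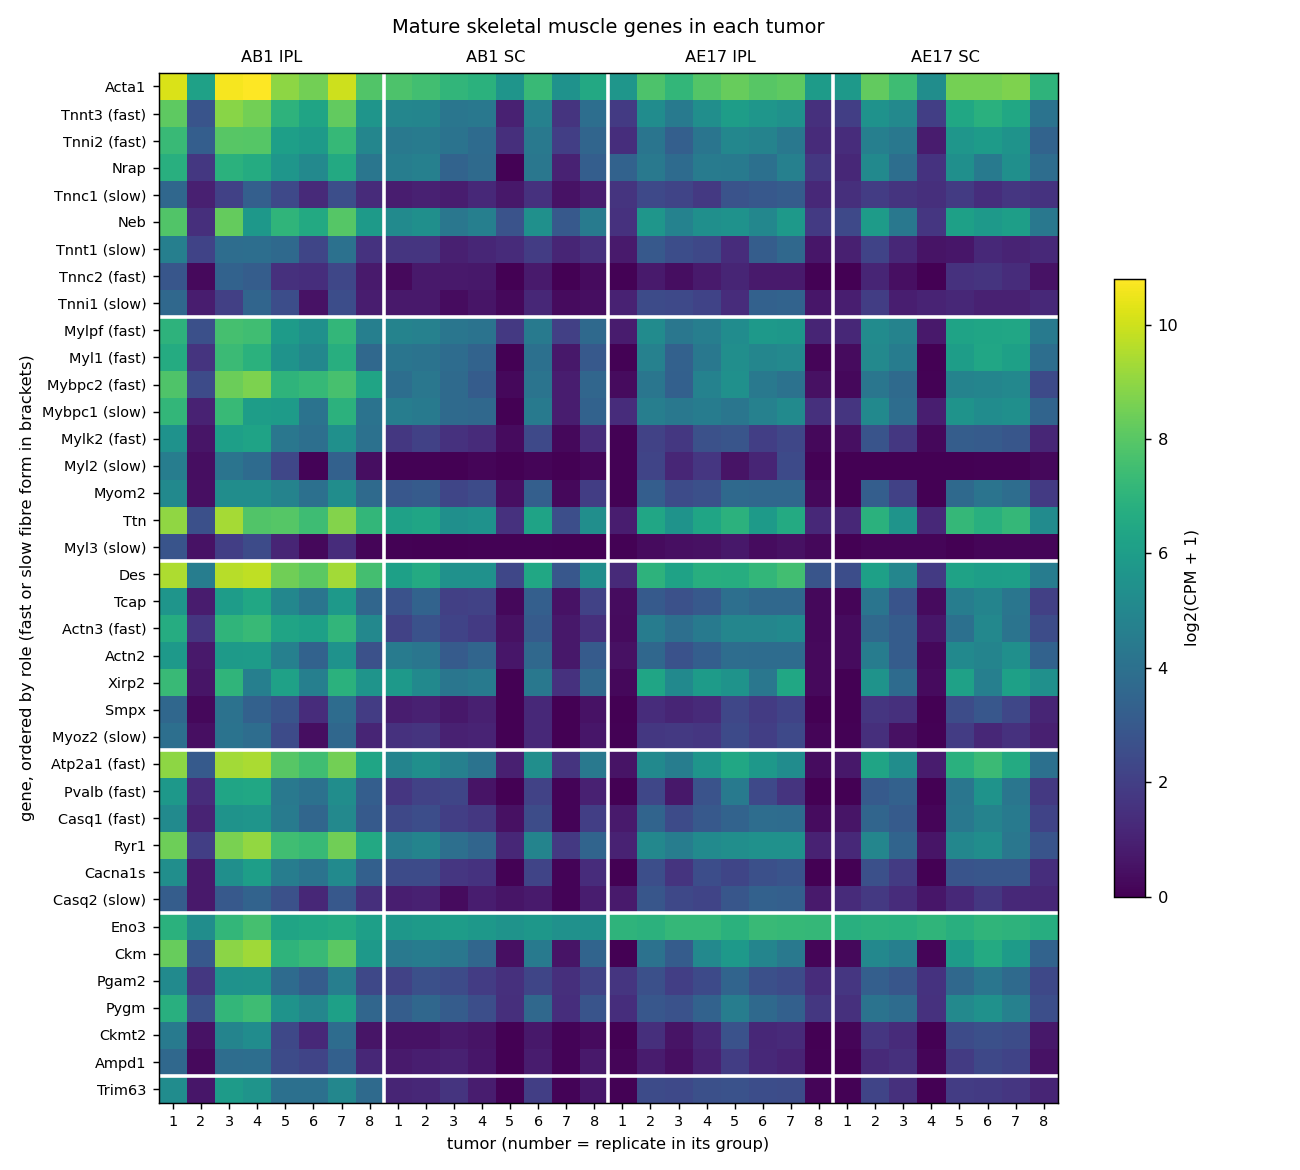
Level of each of the 38 genes (rows, by role) in each of the 32 tumors (columns, by group) as log2(CPM + 1). Columns are dark or bright as a whole, with AB1 IPL brightest apart from tumor 2, and Acta1 and Eno3 stay bright in the dark columns.

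**Figure D2:**
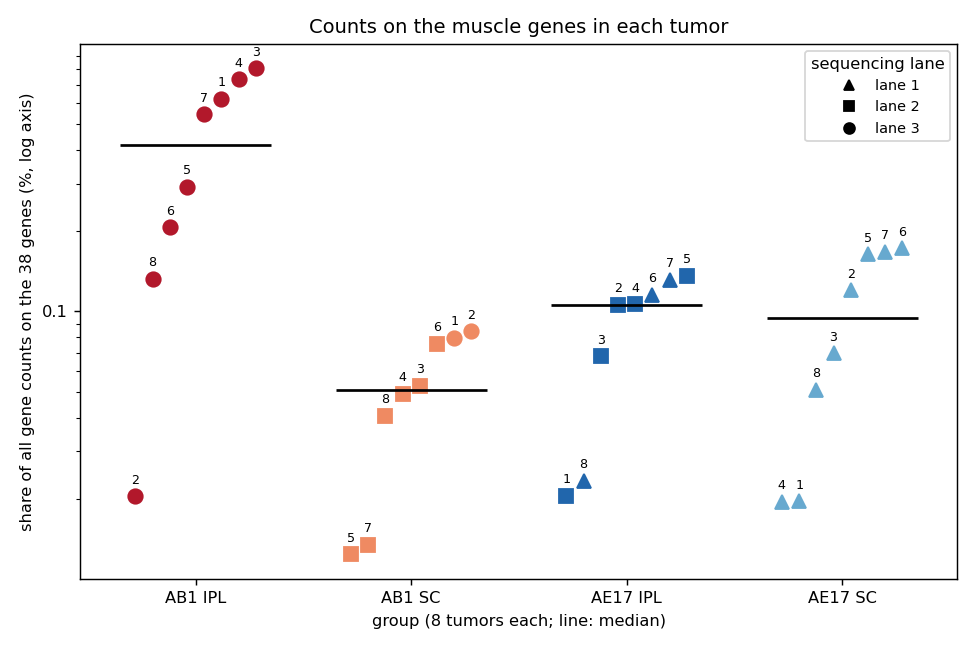
Share of all gene counts that fell on the 38 genes (percent, log axis) in each tumor, by group, with the replicate number above each point, the lane as its shape and the group median as a line. AB1 IPL tumors reach 0.808%, and AB1 IPL tumor 2, AB1 SC tumors 5 and 7, AE17 IPL tumors 1 and 8 and AE17 SC tumors 1 and 4 lie between 0.0124% and 0.0233%.

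In AB1, 34 of the 36 genes that passed the filter on low counts were higher in IPL than in SC tumors and none was lower, where 12.3% of all 14645 genes tested were higher. The log2 fold changes ran from 0.99 to 5.10, with a median of 3.13, while the median of all genes was -0.0023. The 2 genes not called, Actn2 and Xirp2, were also higher on average. In AE17, 2 of 36 were higher and none was lower, where 2.60% of 14668 genes were higher and 3.13% lower, and 5 genes had an unadjusted p under 0.05. The median log2 fold change in AE17 was -0.35, with 12 genes positive and 24 negative. DESeq2 called 5 of the 36 higher in AE17 IPL tumors, where it called 5.61% of all genes higher and 5.71% lower, and limma-voom with sample quality weights, which give less weight to tumors that fit poorly, called 1, where it called 14.1% higher and 12.9% lower. The 2 genes called by edgeR were Tnni1 and Casq2, both slow forms. With a block for the replicate number, 0 of the 36 were called in AE17.

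The site differences of AB1 could be checked against sequencing lane only in part. Within lane 3, where 8 AB1 IPL tumors stood against SC tumors 1 and 2, all 38 genes were still higher in IPL, with a median log2 difference of 2.49. These 38 include Myl2 and Myl3, which in SC tumors 1 and 2 were at most 0.0538 CPM, below the detection limit. Both entered this fit through the IPL tumors alone, so their direction was set in advance and counts for nothing here. In this comparison none was called and 21 had an unadjusted p under 0.05, while 10 of 15993 genes in the whole table were called higher. With the lane as a covariate none of the 36 was called, 23 had an unadjusted p under 0.05, the median was 2.50, and 107 genes were called higher in the whole table. SC tumors 1 and 2 had the second highest and the highest share of counts on muscle genes of their group. The part of the lane in these differences therefore cannot be told apart from that of the site at this size. In AE17 within lane 1, with 3 IPL and 8 SC tumors, none was called and 13 were higher and 23 lower.

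**Figure D3:**
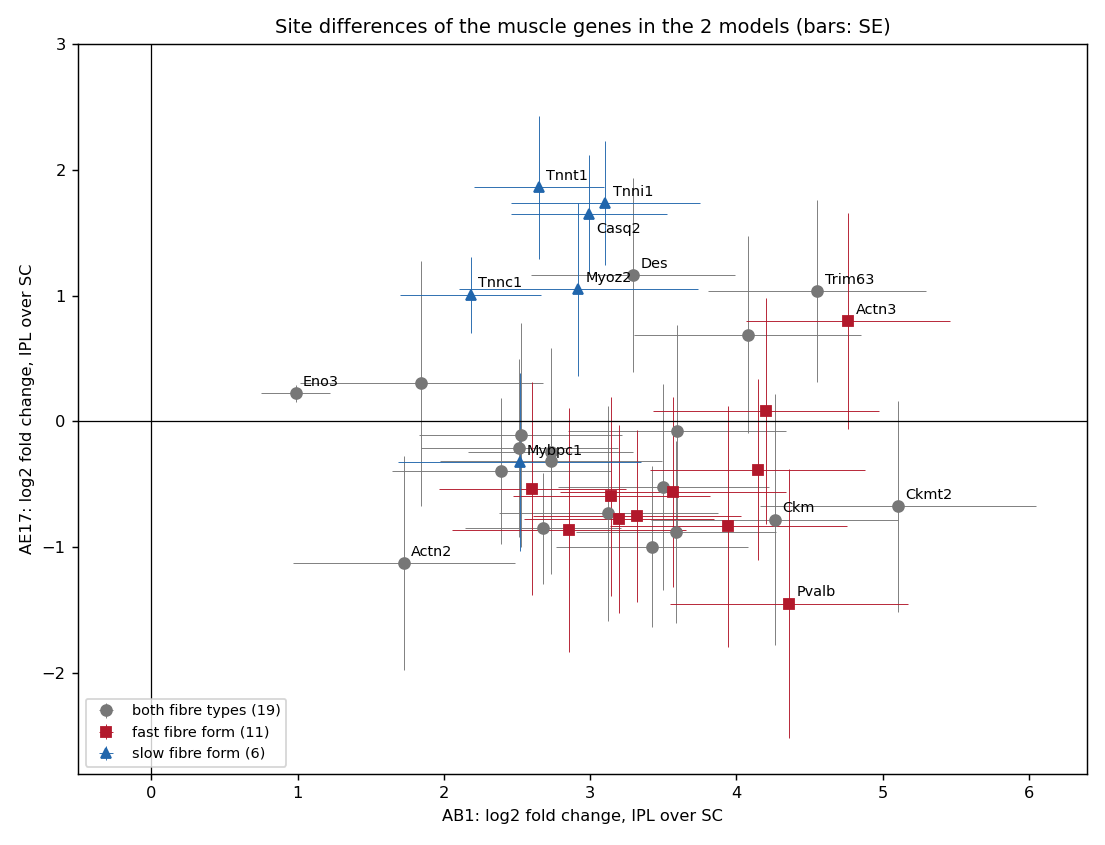
Log2 fold change of IPL over SC tumors in AB1 (horizontal) and AE17 (vertical) for the 36 genes that could be fitted in both models, with SE bars and fast, slow and shared forms by color and shape. All 36 genes lie to the right of 0, and 5 of the 6 slow forms lie above 0 in AE17, where 9 of the 11 fast forms lie below it.

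The thin filament is built of actin, which Acta1 encodes in skeletal muscle, and is regulated by troponin. Acta1 was the most abundant member by CPM per kilobase of exon. It ran from 72.0 to 1783 CPM in AB1 IPL tumors (median 752) against 43.8 to 217 CPM in AB1 SC tumors (median 129). Of the IPL tumors 7 exceeded every SC tumor, and the log2 fold change was 2.73 ± 0.56 (SE, n = 8 and 8, adjusted p = 0.00240). In AE17 it ran from 50.7 to 314 CPM in IPL tumors (median 230) against 38.6 to 421 CPM in SC tumors (median 233), and the groups overlapped throughout (log2 fold change -0.25 ± 0.50, adjusted p = 0.797). Neb encodes nebulin, which runs along the thin filament. It ranged from 1.72 to 307 CPM in AB1 IPL tumors (median 113) against 5.84 to 42.1 CPM in AB1 SC tumors (median 22.9), with 7 IPL tumors above every SC tumor (log2 fold change 2.52, adjusted p = 0.0127). In AE17 its medians were 36.0 CPM in IPL tumors (1.92 to 56.0) and 37.2 CPM in SC tumors (2.26 to 68.6). Nrap, a protein of the thin filament ends in growing myofibrils, ranged from 2.32 to 118 CPM in AB1 IPL tumors (median 72.2) against 0.0573 to 25.3 CPM in AB1 SC tumors (median 11.1), with 6 IPL tumors above every SC tumor (log2 fold change 2.39, adjusted p = 0.0296). In AE17 the Nrap medians were 17.1 CPM (2.34 to 25.2) in IPL tumors and 17.3 CPM (1.33 to 40.4) in SC tumors, and the ranges overlapped.

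Troponin has an inhibitory subunit (I), a tropomyosin-binding subunit (T) and a calcium-binding subunit (C), each with a fast and a slow gene. The fast inhibitor Tnni2 ran from 8.30 to 258 CPM in AB1 IPL tumors (median 109) against 1.72 to 21.6 CPM in AB1 SC tumors (median 14.5). In AB1 the slow inhibitor Tnni1 ran from 0.422 to 11.6 CPM in IPL tumors (median 3.97) against 0.172 to 1.28 CPM in SC tumors (median 0.418). Both rose in AB1 IPL tumors, with log2 fold changes of 3.19 ± 0.65 (adjusted p = 0.00216) and 3.10 ± 0.64 (adjusted p = 0.00211). The number of IPL tumors above every SC tumor was 7 for Tnni2 and 5 for Tnni1. In AE17, Tnni2 ran from 1.503 to 30.8 CPM in IPL tumors (median 17.2) against 0.772 to 59.4 CPM in SC tumors (median 21.7), with a log2 fold change of -0.77 ± 0.75 (adjusted p = 0.557). Tnni1 ran from 0.557 to 9.75 CPM in AE17 IPL tumors (median 3.92) against 0.865 to 2.85 CPM in AE17 SC tumors (median 1.07). AE17 IPL tumors 2, 3, 4, 6 and 7 were above every SC tumor for Tnni1, tumors 1, 5 and 8 were not, and the log2 fold change was 1.73 ± 0.49 (adjusted p = 0.0482). Leaving out 1 tumor at a time, this adjusted p ran from 0.0298 to 0.103 and was under the threshold in 5 of 16 fits. The difference between the 2 genes' fold changes was not tested.

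Troponin T anchors the complex to tropomyosin. In AB1 the fast Tnnt3 ran from 6.03 to 475 CPM in IPL tumors (median 203) against 0.973 to 30.3 CPM in SC tumors (median 18.4), and the slow Tnnt1 from 2.01 to 23.99 CPM (median 12.7) against 0.956 to 2.74 CPM (median 1.68). Each had 7 IPL tumors above every SC tumor. Their log2 fold changes were 3.56 ± 0.77 (adjusted p = 0.00341) and 2.65 ± 0.44 (adjusted p = 4.35e-04). In AE17, Tnnt3 ran from 1.84 to 64.4 CPM in IPL tumors (median 38.1) against 2.97 to 114 CPM in SC tumors (median 38.6), with a log2 fold change of -0.56 ± 0.75 (adjusted p = 0.685). Tnnt1 ran from 0.557 to 11.7 CPM in AE17 IPL tumors (median 4.46) against 0.475 to 3.52 CPM in SC tumors (median 1.21). Here 5 IPL tumors exceeded every SC tumor, but the log2 fold change of 1.86 ± 0.57 was not called (adjusted p = 0.0612). The calcium-binding Tnnc2 and Tnnc1 are less certain, because 74.0% of the exon bases of Tnnc2 overlap Ube2c in the annotation. Tnnc2 ran from 0.216 to 9.66 CPM in AB1 IPL tumors (median 2.86) against 0 to 0.700 CPM in AB1 SC tumors (median 0.445), with 7 IPL tumors above every SC tumor (log2 fold change 3.32, adjusted p = 0.00269). The slow Tnnc1, which heart muscle also uses, ran from 0.916 to 11.3 CPM in AB1 IPL tumors (median 3.77) against 0.424 to 1.93 CPM in AB1 SC tumors (median 0.825), with a log2 fold change of 2.18 (adjusted p = 0.00320). In AE17, Tnnc2 stayed between 0 and 2.05 CPM at both sites. Tnnc1 ran from 1.34 to 7.76 CPM in AE17 IPL tumors (median 3.93) against 1.64 to 2.79 CPM in SC tumors (median 2.06), with 5 IPL tumors above every SC tumor, and was not called (log2 fold change 1.01 ± 0.30, adjusted p = 0.0577).

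**Figure D4:**
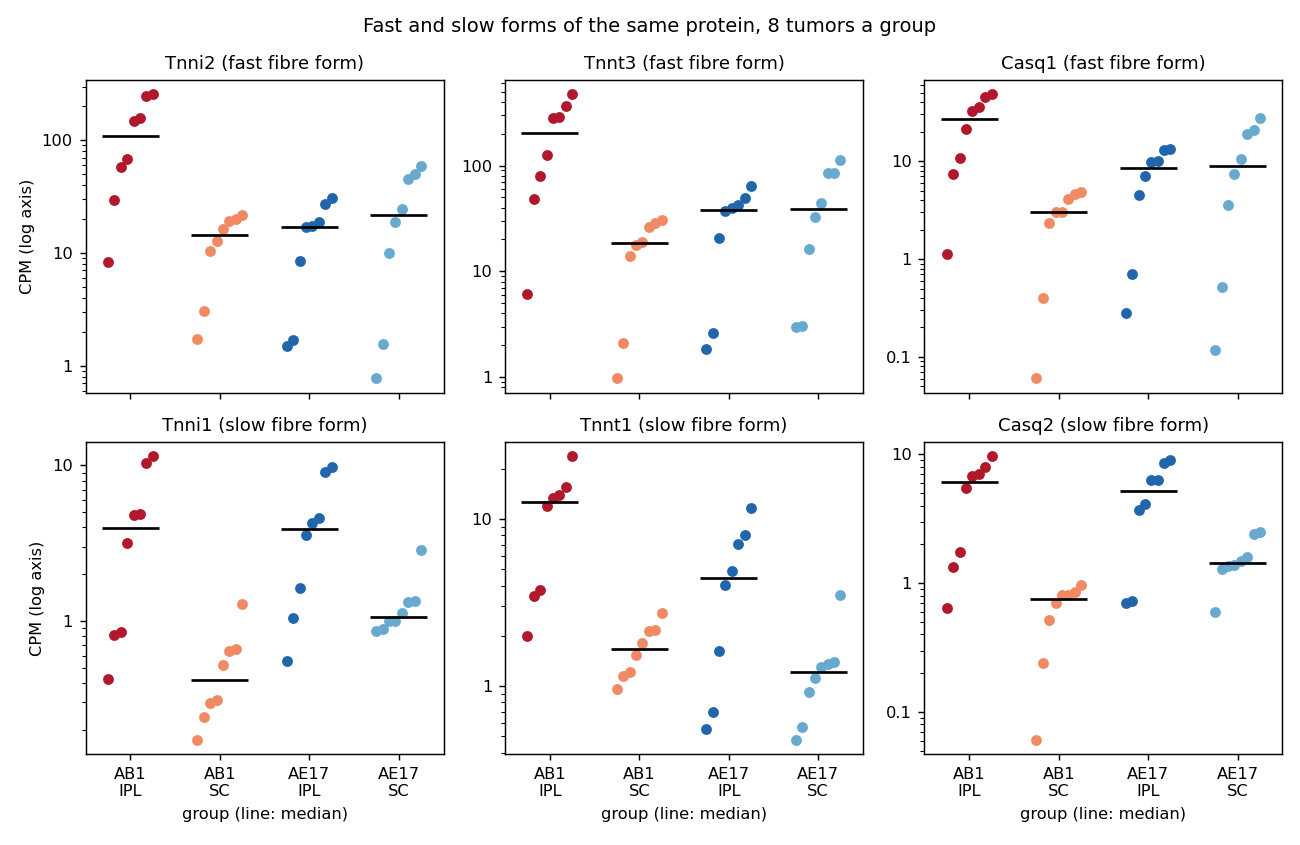
CPM (log axis) of the fast form (top) and the slow form (bottom) of troponin I, troponin T and calsequestrin in each tumor, by group, with the group median as a line. In AE17 the IPL median is above the SC median for Tnni1, Tnnt1 and Casq2 and below or beside it for Tnni2, Tnnt3 and Casq1, whereas in AB1 all 6 IPL medians are above the SC medians.

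The thick filament is built of myosin, whose light chains Myl1 and Mylpf serve fast and Myl3 and Myl2 slow fibers. Mylpf ran from 5.23 to 193 CPM in AB1 IPL tumors (median 92.6) against 2.46 to 27.6 CPM in AB1 SC tumors (median 17.1), with 6 IPL tumors above every SC tumor (log2 fold change 2.60 ± 0.64, adjusted p = 0.00770). Its AE17 range was 0.756 to 55.9 CPM in IPL tumors (median 30.1) against 0.653 to 84.2 CPM in SC tumors (median 31.96), with full overlap (log2 fold change -0.53 ± 0.84, adjusted p = 0.737). Myl1 ran from 2.10 to 166 CPM in AB1 IPL tumors (median 73.4) against 0 to 17.4 CPM in AB1 SC tumors (median 11.5), with a log2 fold change of 2.85 (adjusted p = 0.0165). In AE17 the Myl1 medians were 22.6 CPM in IPL tumors (0.0582 to 39.4) and 27.8 CPM in SC tumors (0 to 83.9). The slow light chains were hardly detected in SC tumors. Myl2 reached 3 counts in 7 of 8 AB1 IPL, no AB1 SC, 6 of 8 AE17 IPL and 1 of 8 AE17 SC tumors, and Myl3 in 7, 0, 7 and 0. Myl2 ran up to 22.6 CPM in AB1 IPL tumors (median 6.62) and up to 4.33 CPM in AE17 IPL tumors (median 1.20), with at most 0.125 CPM in AB1 SC and 0.183 CPM in AE17 SC tumors. Myl3 ran from 0.106 to 6.00 CPM in AB1 IPL tumors (median 1.37), all above its highest AB1 SC value of 0.0583 CPM, and from 0.0582 to 0.601 CPM in AE17 IPL tumors (median 0.330) against at most 0.122 CPM in AE17 SC tumors. Neither passed the filter on low counts when all tumors of a model were fitted, so neither was tested there. With SC tumors at 3 counts or fewer no fold change is given.

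Mybpc2 and Mybpc1 encode the fast and slow forms of myosin-binding protein C, which braces the thick filament. Mybpc2 ran from 4.47 to 404 CPM in AB1 IPL tumors (median 175) against 0.172 to 18.5 CPM in AB1 SC tumors (median 11.4), with 7 IPL tumors above every SC tumor (log2 fold change 4.20 ± 0.77, adjusted p = 0.00107). The slow Mybpc1 ran from 1.02 to 155 CPM in AB1 IPL tumors (median 61.6) against 0 to 23.1 CPM in AB1 SC tumors (median 11.9), with 5 IPL tumors above every SC tumor (log2 fold change 2.52 ± 0.83, adjusted p = 0.0382). In AE17 neither differed beyond its spread. Mybpc2 had medians of 16.9 CPM in IPL tumors (0.233 to 41.8) and 15.2 CPM in SC tumors (0.0594 to 32.1), and Mybpc1 of 20.7 CPM (1.57 to 35.01) and 23.8 CPM (0.891 to 46.4). Mybpc1 was the exception among the slow forms tested in AE17, since its log2 fold change was -0.32 ± 0.71 (adjusted p = 0.816). Mylk2, the kinase that phosphorylates the myosin light chain in skeletal muscle, ran from 0.539 to 75.2 CPM in AB1 IPL tumors (median 29.97) against 0.182 to 4.20 CPM in AB1 SC tumors (median 1.77), with a log2 fold change of 4.14 (adjusted p = 8.26e-04). In AE17 its medians were 3.21 CPM (0.0582 to 6.13) and 4.18 CPM (0.178 to 7.99) in IPL and SC tumors. Ttn encodes titin, the elastic protein that spans the sarcomere, and ran from 5.23 to 659 CPM in AB1 IPL tumors (median 239) against 1.95 to 80.0 CPM in AB1 SC tumors (median 42.4), with a log2 fold change of 2.73 (adjusted p = 0.0157). Its AE17 medians were 69.7 CPM (0.814 to 120) in IPL and 79.7 CPM (1.27 to 146) in SC tumors. Myom2, a protein of the M band, ran from 0.377 to 38.8 CPM in AB1 IPL tumors (median 30.9) against 0.182 to 8.75 CPM in AB1 SC tumors (median 4.18), with a log2 fold change of 2.52 (adjusted p = 0.0147). In AE17 the Myom2 medians were 6.77 CPM in IPL tumors (0.0582 to 11.8) and 5.80 CPM in SC tumors (0 to 17.1).

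The Z disc anchors the thin filaments. Des encodes desmin, the intermediate filament that links Z discs, and ran from 22.6 to 876 CPM in AB1 IPL tumors (median 495) against 3.89 to 95.9 CPM in AB1 SC tumors (median 43.7). Of the IPL tumors 7 exceeded every SC tumor, and the log2 fold change was 3.29 ± 0.70 (adjusted p = 0.00286). Its AE17 range was 1.45 to 183 CPM in IPL tumors (median 107) against 2.61 to 74.0 CPM in SC tumors (median 47.7). Here 6 IPL tumors were above every SC tumor while IPL tumors 1 and 8 were at 1.45 and 6.12 CPM, and the difference was not called (log2 fold change 1.16 ± 0.77, adjusted p = 0.363). The 2 alpha-actinins cross-link actin at the Z disc, Actn3 in fast fibers only. Actn3 ran from 2.16 to 156 CPM in AB1 IPL tumors (median 90.1) against 0.401 to 7.58 CPM in AB1 SC tumors (median 3.00), with a log2 fold change of 4.76 ± 0.70 (adjusted p = 2.00e-04). Actn2 ran from 0.647 to 60.4 CPM in AB1 IPL tumors (median 34.6) against 0.573 to 21.3 CPM in AB1 SC tumors (median 9.03), with 5 IPL tumors above every SC tumor, and was not called (log2 fold change 1.72 ± 0.76, adjusted p = 0.117). In AE17, Actn3 had medians of 21.4 CPM (0.167 to 34.4) in IPL and 9.76 CPM (0.231 to 31.9) in SC tumors, and Actn2 of 9.72 CPM (0.223 to 13.5) and 15.9 CPM (0.178 to 41.0). Their log2 fold changes there were 0.80 ± 0.86 and -1.13 ± 0.85, both within the spread between tumors.

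Tcap, which caps titin at the Z disc, ran from 0.754 to 84.3 CPM in AB1 IPL tumors (median 39.4) against 0.172 to 10.0 CPM in AB1 SC tumors (median 3.40), with a log2 fold change of 3.12 (adjusted p = 0.00646). Its AE17 medians were 7.13 CPM in IPL tumors (0.167 to 14.2) and 11.7 CPM in SC tumors (0.115 to 28.1). Smpx, a small protein of the muscle cell's edge, ran from 0.162 to 15.7 CPM in AB1 IPL tumors (median 7.63) against 0 to 1.34 CPM in AB1 SC tumors (median 0.702), with a log2 fold change of 3.5 (adjusted p = 0.00209). Both had 7 AB1 IPL tumors above every SC tumor. In AE17 the Smpx medians were 1.51 CPM (0 to 3.91) in IPL and 2.00 CPM (0 to 6.69) in SC tumors. The slow Myoz2, which binds calcineurin at the Z disc, ran from 0.302 to 16.4 CPM in AB1 IPL tumors (median 7.92) against 0 to 2.08 CPM in AB1 SC tumors (median 1.06), with a log2 fold change of 2.92 ± 0.82 (adjusted p = 0.0155). In AE17, Myoz2 ran from 0.0582 to 4.45 CPM in IPL tumors (median 2.44) against 0.0577 to 2.83 CPM in SC tumors (median 1.10), with 3 IPL tumors above every SC tumor, and was not called (log2 fold change 1.05 ± 0.69, adjusted p = 0.358). Xirp2, an actin-binding protein of the cell junctions, ran from 0.539 to 159 CPM in AB1 IPL tumors (median 59.3) against 0 to 54.1 CPM in AB1 SC tumors (median 18.5), and was not called (log2 fold change 1.84 ± 0.83, adjusted p = 0.126). Without AB1 IPL tumor 2, Actn2 and Xirp2 were called as well, so that all 36 tested genes were. That tumor was the lowest of its group in 33 of the 38 genes, and leaving out other single tumors gave as few as 32 called. The Xirp2 medians in AE17 were 40.2 CPM in IPL tumors (0.175 to 84.7) and 33.4 CPM in SC tumors (0 to 71.1).

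Calcium handling genes had a median log2 fold change of 3.77 in AB1, and all 6 were called. Atp2a1, the calcium pump of the fast fiber's reticulum, ran from 7.44 to 698 CPM in AB1 IPL tumors (median 307) against 0.916 to 41.1 CPM in AB1 SC tumors (median 22.3), with a log2 fold change of 3.94 ± 0.81 (adjusted p = 0.00228). Its AE17 values went from 0.278 to 85.5 CPM in IPL tumors (median 35.6) against 0.635 to 161 CPM in SC tumors (median 58.2), and only 1 IPL tumor was above the SC median (log2 fold change -0.83 ± 0.96, adjusted p = 0.628). Of its exon bases 21.9% are shared with Rabep2. Pvalb encodes parvalbumin, the soluble calcium buffer of fast fibers. It ran from 1.62 to 85.4 CPM in AB1 IPL tumors (median 28.9) against 0 to 3.83 CPM in AB1 SC tumors (median 1.66), with a log2 fold change of 4.36 ± 0.81 (adjusted p = 0.00121). In AE17, Pvalb ran from 0 to 20.2 CPM in IPL tumors (median 3.00) against 0 to 46.0 CPM in SC tumors (median 8.26), with a log2 fold change of -1.45 ± 1.07 (adjusted p = 0.420), the lowest of all members in that model.

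Calsequestrin stores calcium inside the reticulum, Casq1 in fast fibers and Casq2 in slow fibers and in the heart. In AB1 the fast form ran from 1.13 to 48.6 CPM in IPL tumors (median 27.01) against 0.0606 to 4.87 CPM in SC tumors (median 2.99), and the slow form from 0.647 to 9.78 CPM (median 6.16) against 0.0606 to 0.964 CPM (median 0.756). Each had 7 IPL tumors above every SC tumor, and the log2 fold changes were 3.14 ± 0.67 (adjusted p = 0.00304) and 2.99 ± 0.53 (adjusted p = 7.15e-04). In AE17 the fast form ran from 0.278 to 13.4 CPM in IPL tumors (median 8.42) against 0.119 to 27.4 CPM in SC tumors (median 8.95), without a call (log2 fold change -0.60 ± 0.79, adjusted p = 0.680). The slow form ran from 0.698 to 9.08 CPM in AE17 IPL tumors (median 5.21) against 0.594 to 2.49 CPM in AE17 SC tumors (median 1.44). All AE17 IPL tumors but 1 and 8 were above every SC tumor, and the log2 fold change was 1.65 ± 0.46 (adjusted p = 0.0461). This adjusted p ran from 0.0254 to 0.0938 when 1 tumor at a time was left out, and was under the threshold in 4 of 16 fits. Ryr1, the channel that releases calcium, ran from 2.96 to 526.2 CPM in AB1 IPL tumors (median 262) against 1.32 to 28.4 CPM in AB1 SC tumors (median 12.6), with a log2 fold change of 4.08 (adjusted p = 0.00137). Cacna1s, the voltage sensor that opens it, ran from 0.647 to 66.0 CPM in AB1 IPL tumors (median 28.8) against 0.0573 to 4.52 CPM in AB1 SC tumors (median 2.12), with a log2 fold change of 3.59 (adjusted p = 0.00247). In AE17 the Ryr1 medians were 33.6 CPM (1.05 to 43.8) in IPL and 14.2 CPM (0.534 to 38.3) in SC tumors, and those of Cacna1s were 4.26 CPM (0 to 5.99) and 3.96 CPM (0 to 6.48).

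Muscle fibers draw on creatine kinase and glycogen for rapid energy. Ckm, the cytosolic creatine kinase, ran from 6.95 to 612 CPM in AB1 IPL tumors (median 212) against 0.344 to 22.4 CPM in AB1 SC tumors (median 14.7), with a log2 fold change of 4.26 ± 0.84 (adjusted p = 0.00180). Its AE17 values went from 0 to 57.0 CPM in IPL tumors (median 17.9) against 0.119 to 95.6 CPM in SC tumors (median 28.1), with full overlap (log2 fold change -0.78 ± 0.99, adjusted p = 0.667). Its mitochondrial partner Ckmt2 had the largest AB1 log2 fold change of the 36 genes tested by edgeR, 5.10 ± 0.94 (adjusted p = 0.00104). With limma-voom it was 4.92, below that of Pvalb (5.57). Ckmt2 ran from 0.431 to 36.8 CPM in AB1 IPL tumors (median 8.47) against 0 to 0.658 CPM in AB1 SC tumors (median 0.443), and in AE17 its medians were 1.27 CPM (0 to 5.65) and 1.89 CPM (0 to 5.28). Pygm, which breaks down glycogen, ran from 5.44 to 174 CPM in AB1 IPL tumors (median 57.4) against 1.64 to 11.7 CPM in AB1 SC tumors (median 6.88), with a log2 fold change of 3.42 (adjusted p = 0.00144). The glycolytic mutase Pgam2 ran from 2.32 to 46.0 CPM in AB1 IPL tumors (median 18.1) against 1.76 to 5.23 CPM in AB1 SC tumors (median 3.44), with a log2 fold change of 2.68 (adjusted p = 0.00167). Ampd1, the AMP deaminase of muscle, ran from 0.216 to 14.1 CPM in AB1 IPL tumors (median 6.68) against 0 to 1.02 CPM in AB1 SC tumors (median 0.693), with a log2 fold change of 3.59 (adjusted p = 0.00118). In AE17 each of these 3 had 1 IPL tumor above the SC median. Their AE17 medians in IPL and SC tumors were 7.78 CPM (1.69 to 23.2) and 14.8 CPM (1.79 to 42.99) for Pygm, 4.44 CPM (1.56 to 10.0) and 7.54 CPM (2.02 to 18.1) for Pgam2, and 0.887 CPM (0.0557 to 2.89) and 1.64 CPM (0 to 4.11) for Ampd1.

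Eno3, the muscle enolase of glycolysis, behaved unlike the other members. It ran from 37.9 to 195 CPM in AB1 IPL tumors (median 89.9) against 41.5 to 60.8 CPM in AB1 SC tumors (median 51.3), and its AB1 log2 fold change of 0.99 ± 0.24 was the smallest of the 36 (adjusted p = 0.00570). Across AE17 tumors it ran from 117 to 160 CPM in IPL tumors (median 146) against 105 to 133 CPM in SC tumors (median 119). In AE17, 5 IPL tumors were above every SC tumor, and the log2 fold change of 0.22 ± 0.07 was not called (adjusted p = 0.0632). Without AE17 IPL tumor 5 it was 0.25 and was called by edgeR (adjusted p = 0.0314). No AE17 tumor was below 105 CPM, including those in which Ckm was at or near 0.

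Trim63 encodes MuRF1, a ubiquitin ligase that marks sarcomere proteins for breakdown during atrophy. It ran from 0.593 to 60.1 CPM in AB1 IPL tumors (median 22.8) against 0.0573 to 2.98 CPM in AB1 SC tumors (median 0.998). Of the IPL tumors 7 exceeded every SC tumor, and the log2 fold change was 4.55 ± 0.75 (adjusted p = 4.39e-04). In AE17 it ran from 0.0582 to 5.65 CPM in IPL tumors (median 4.61) against 0 to 3.58 CPM in SC tumors (median 2.06). In AE17, 6 IPL tumors were above every SC tumor while tumors 1 and 8 were under 3 counts, and the difference was not called (log2 fold change 1.03 ± 0.72, adjusted p = 0.390).

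The fast and slow forms were counted side by side. In AB1, 11 of 11 fast genes and 6 of 6 tested slow genes were higher in IPL tumors, with median log2 fold changes of 3.56 and 2.78, and 17 of 19 shared genes were, with a median of 3.12. In AE17 none of the 11 fast genes was called in either direction by edgeR, DESeq2 or limma-voom, none had an unadjusted p under 0.05 by any of them, and the median was -0.60. Of the 6 tested slow genes in AE17, 2 were called by edgeR, 4 by DESeq2 and none by limma-voom, against 2.60%, 5.61% and 14.1% of all genes called higher by these tools, 4 had an unadjusted p under 0.05 by each tool, and the median was 1.35. None of the 19 shared genes was called in AE17 by edgeR, while DESeq2 and limma-voom called 1 each and 1, Eno3, had an unadjusted p under 0.05 in edgeR. Within lane 1 the AE17 medians were 1.64 for the slow and -0.74 for the fast genes, with no gene called.

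The ratio of the summed CPM per kilobase of the 11 fast over the 8 slow genes gave the balance within each tumor. It ran from 6.08 to 38.3 in AB1 IPL tumors (median 16.9) against 3.07 to 14.4 in AB1 SC tumors (median 9.77). In AE17 it ran from 1.29 to 12.8 in IPL tumors (median 5.45) against 1.31 to 29.8 in SC tumors (median 12.7). AE17 IPL tumors 2, 3, 4, 6 and 7 lay between 4.13 and 8.03, tumor 5 was at 12.8, and the groups overlapped. For Tnni2 over Tnni1 the medians were 65.8 in AB1 IPL, 65.4 in AB1 SC, 6.84 in AE17 IPL and 36.1 in AE17 SC tumors, and for Tnnt3 over Tnnt1 they were 27.7, 15.9, 6.56 and 26.4. For Casq1 over Casq2 the medians were 6.47, 6.75, 2.10 and 6.60, and for the less certain Tnnc2 over Tnnc1 they were 0.882, 0.535, 0.176 and 0.731. For these 4 pairs the median was lowest in AE17 IPL tumors of the 4 groups. Mybpc2 over Mybpc1 did not follow, with medians of 4.08 in AB1 IPL, 1.11 in AB1 SC, 0.765 in AE17 IPL and 0.752 in AE17 SC tumors. The light chain pairs could not be compared over all 4 groups. Myl1 over Myl3 had medians of 39.9 in 7 AB1 IPL tumors and 73.3 in 6 AE17 IPL tumors, and Mylpf over Myl2 had medians of 27.9 and 24.9 in 7 and 6 tumors, while Mylpf over Myl2 was 202 in the 1 AE17 SC tumor with enough counts and no other SC tumor gave a value for either pair. These ratios are descriptions. The lowest ratio of all fast over all slow genes came in each group from the tumor with the fewest muscle counts, down to 1.29 in AE17 IPL tumor 1 and 1.31 in AE17 SC tumor 4. A ratio of 2 genes is given only for tumors in which both had enough counts, which left fewer than 8 tumors in some groups for 5 of the pairs.

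**Figure D5:**
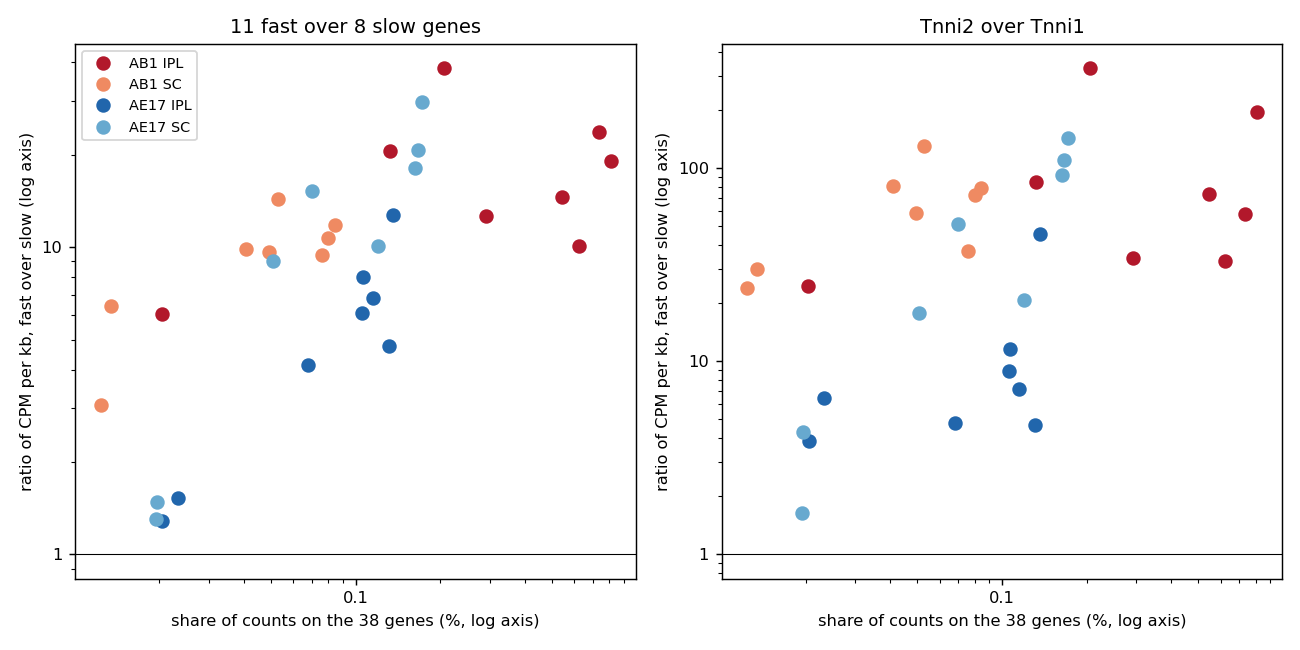
Ratio of fast to slow forms by CPM per kilobase (log axis) against the share of counts on the 38 genes (percent, log axis) in each tumor, for all fast and slow members (left) and for the troponin I pair (right). For the troponin I pair the AE17 IPL tumors other than tumor 5 lie between 3.87 and 11.6, and in the left panel the 4 AE17 tumors with the smallest shares lie between 1.29 and 1.53.

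Whether the site difference itself differed between the models was tested as an interaction in all 32 tumors. The AE17 difference was smaller than that of AB1 in 25 of 37 genes tested and larger in none, where 11.9% of 15681 genes were lower and 8.62% higher. By fiber class these were, in edgeR, 11 of 11 fast genes, 14 of 19 shared genes and none of 7 slow genes. Of these 7, Myl2 had 3 counts in only 1 of the 16 SC tumors, and its value (-1.77 ± 2.45) says nothing of a site difference. The slow genes also had negative values, between -2.86 and -0.81, so that this count does not show that their site difference was equal in the models. For Pvalb, whose medians were 28.9 and 1.66 CPM in AB1 IPL and SC tumors and 3.00 and 8.26 CPM in AE17, the interaction was -5.83 ± 1.40 (adjusted p = 0.00418). For Tnni2 it was -3.99 ± 1.01 (adjusted p = 0.00613) and for its slow partner Tnni1 -1.39 ± 0.82 (adjusted p = 0.245). DESeq2 called 11 fast, 15 shared and 0 slow genes lower in the interaction, and limma-voom with sample quality weights called 10, 16 and 2. Of all 15681 genes these tools called 2074 and 2465 lower. With the lane as a covariate in edgeR all 37 values stayed negative, none was called and 9 had an unadjusted p under 0.05. The median was then -2.60 against -3.54 without the lane.

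AE17 and AB1 tumors were also compared within each site, in comparisons that share tumors with those above. Among SC tumors 8 of 37 genes were higher in AE17 and none lower, where 29.7% of all genes were higher and 28.6% lower, so the share of members called was below that of the table. The 8 genes were Tnnc1, Smpx, Casq1, Casq2, Pvalb, Ckmt2, Eno3 and Pgam2. The largest differences were those of Pvalb (log2 difference 2.81 ± 1.01, adjusted p = 0.0178) and Ckmt2 (2.66 ± 0.98, adjusted p = 0.0206), and the smallest p was that of Eno3 (1.26 ± 0.18, adjusted p = 4.69e-07). This count fell to 3 without AE17 SC tumor 6, to 4 without AB1 SC tumor 5 and to 5 without AB1 SC tumor 7 or AE17 SC tumor 7, and rose to 12 without AE17 SC tumor 4. Among IPL tumors 30 of 37 genes were lower in AE17 than in AB1 and 1, Eno3, was higher, where 31.6% of all genes were lower and 31.8% higher. The median log2 difference was -2.25, with Ckm at -3.61 ± 0.98 (adjusted p = 0.00204) and Mybpc2 at -3.51 ± 0.86 (adjusted p = 7.93e-04). By fiber class, 10 of 11 fast genes, 17 of 19 shared genes and 3 of 7 slow genes were lower in AE17, with medians of -2.83, -2.30 and -1.17. Of the slow forms Myl2, Mybpc1 and Tnnt1 were lower, at -2.30, -1.94 and -1.17 (adjusted p = 0.00683, 0.0341 and 0.0383), and Myoz2 was at -1.68 (adjusted p = 0.0505). Tnni1, Casq2 and Tnnc1 were at -0.07, -0.03 and -0.06, with SEs of 0.53, 0.47 and 0.39 (adjusted p = 0.918, 0.968 and 0.902). With the lane as a covariate none of the 37 was called among IPL tumors, where the median log2 difference went from -2.25 to -1.36, and 1 was called among SC tumors, where it went from 1.13 to 1.48.

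The level of single members was read in the 6 tumors with 23 to 27 genes at 3 counts or more. In AE17 IPL tumor 1, with Ckm at 0 counts, Acta1 was at 50.7 CPM and Eno3 at 128 CPM. Ckm was at 0.111 CPM in AE17 IPL tumor 8, 0.173 CPM in AE17 SC tumor 1 and 0.119 CPM in AE17 SC tumor 4, where Acta1 was at 59.9, 54.7 and 38.6 CPM and Eno3 at 146, 113 and 133 CPM. In AB1 SC tumors 5 and 7, Ckm was at 0.344 and 0.484 CPM, Acta1 at 48.3 and 43.8 CPM, and Eno3 at 45.5 and 43.6 CPM. Acta1 and Eno3 together held most of the muscle counts in these tumors. The summed level of the other 36 genes was 28.4 and 44.9 CPM in AB1 SC tumors 5 and 7, 32.7 and 29.7 CPM in AE17 IPL tumors 1 and 8, and 32.9 and 24.8 CPM in AE17 SC tumors 1 and 4, while the group medians of this sum were 3220 CPM in AB1 IPL, 315 CPM in AB1 SC, 700.0 CPM in AE17 IPL and 599 CPM in AE17 SC tumors. In all, 17 genes reached 3 counts in each of the 6 tumors. Beside Acta1 and Eno3 these were Tnnt1, Tnnt3, Tnni1, Tnni2, Tnnc1, Neb, Mylpf, Ttn, Actn2, Actn3, Des, Ryr1, Atp2a1, Pygm and Pgam2, with Neb between 1.92 and 7.08 CPM and Actn3 between 0.167 and 0.606 CPM.

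Other genes of skeletal muscle moved with the members. Of 55 listed genes outside the set, 49 had a row. In AB1, 42 of the 46 tested were higher in IPL tumors, where 12.3% of all genes were, with a median log2 fold change of 2.72. In AE17, 2 of 46 were higher, where 2.60% of all genes were, with a median of 0.13. The interaction was lower in 27 of 48, where 11.9% of all genes were lower. Flnc, Tpm2 and Obsl1, which were among the 4 with the highest mean level, are not restricted to muscle fibers and had AB1 log2 fold changes of 1.16, 1.54 and 0.57 (adjusted p = 3.11e-04, 5.59e-04 and 2.10e-04). The 2 genes called in AE17 were Obsl1 (0.35, adjusted p = 0.0338) and the muscle ligase Trim54 (1.17, adjusted p = 0.0206), and Trim54 is named because of this call. Of 6 myosin heavy chains, which form the motor, 5 were higher in AB1 IPL tumors, all but Myh1 (log2 fold change 2.21, adjusted p = 0.0804). Of these 5, Myh7 was at only 0.0598 to 0.484 CPM in AB1 SC tumors and passed the filter through the IPL tumors. The slow Myh7, named after its values were seen, was the 1 called in AE17, with medians of 3.66 CPM in IPL and 0.477 CPM in SC tumors (log2 fold change 3.75 ± 0.90, adjusted p = 0.0271), while the fast Myh4 had medians of 35.7 and 52.1 CPM (log2 fold change -0.93, adjusted p = 0.635). Among 6 genes of muscle precursors and regeneration, 2 could be tested in each model. Myog, a transcription factor of muscle differentiation, was higher in IPL tumors in both, with medians of 7.09 and 0.549 CPM in AB1 tumors (3.48 as log2 fold change, adjusted p = 8.02e-04) and 2.70 and 0.422 CPM in AE17 tumors (3.19 as log2 fold change, adjusted p = 0.0492).

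Markers of other tissues were read beside these results. Of all genes tested, 12.3% were called higher and 10.7% lower in AB1 IPL tumors, and 2.60% and 3.13% in AE17 IPL tumors. Of 11 heart muscle genes, 6 were tested in each model. Gata4, Tnnt2 and Myl4 were higher in IPL tumors in both models, and Nppb and Tnni3 were lower in AB1. AE17 IPL tumor 5 stood apart in heart genes, several of which are named after their values were seen. In it the atrial and ventricular genes Myh6, Actc1, Myl7 and Nppa were at 121, 42.8, 8.77 and 4.51 CPM, whereas Myl7 was at or under 0.115 CPM in each other AE17 tumor. The same tumor had the highest adipocyte sum of all 32, at 401 CPM, against medians of 1.15 CPM in AE17 IPL and 5.15 CPM in AE17 SC tumors. Its slow members were mixed, with Tnni1 and Tnnt1 at 1.62 CPM each, below 5 of the other AE17 IPL tumors, and Casq2, Tnnc1 and Myoz2 at 6.37, 5.71 and 4.45 CPM. Without this tumor the AE17 log2 fold changes were 1.85 for Tnni1 (adjusted p = 0.0325), 1.98 for Tnnt1 (0.0423), 1.58 for Casq2 (0.0534) and 0.93 for Tnnc1 (0.0714). In AB1 IPL tumors Myh6 ran up to 33.4 CPM, while Nppa and Myl7 stayed at or below 0.187 and 0.216 CPM and Nkx2-5 was at 0.

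The other tissue lists were read in the same way. The summed smooth muscle level ran from 92.1 to 166 CPM in AB1 IPL and from 61.8 to 88.7 CPM in AB1 SC tumors, with Smtn and Synm the 2 of 4 tested genes that were higher, and Synm is also made by skeletal muscle. In AE17 it ran from 125 to 159 CPM and from 108 to 188 CPM, with Actg2 and Tagln the 2 of 4 higher. Adipocyte genes ran from 1.87 to 108 CPM in AB1 IPL and from 0.242 to 12.7 CPM in AB1 SC tumors, and the 3 genes tested had a median log2 fold change of 2.77, against 3.13 for the muscle genes. Adipoq was called (3.26, adjusted p = 0.0198), while Cidec (2.77, adjusted p = 0.0587) and Plin1 (2.54, adjusted p = 0.0704) were not. In AE17 the median of 4 adipocyte genes was 2.39 and none was called, with adjusted p between 0.191 and 0.498. Each of these 4 genes was highest in AE17 IPL tumor 5, and the group medians ran the other way, with Adipoq at 0.489 CPM in IPL and 1.64 CPM in SC tumors. The summed Schwann cell and nerve genes ran from 106 to 250 CPM in AB1 IPL and from 96.4 to 200 CPM in AB1 SC tumors, with Pmp22 the 1 of 5 called, and none of 3 was called in AE17. Lung epithelial genes summed to medians of 14.9 and 25.7 CPM in AB1 IPL and SC tumors and of 22.1 and 32.6 CPM in AE17. Napsa made up most of these levels, with medians of 12.9, 23.4, 16.7 and 27.5 CPM in the same order. Of the 2 genes tested, Napsa was lower in AB1 and none was called in AE17. The lung secretory genes Sftpb and Scgb1a1 were at most 1.20 CPM in AB1 and 2.51 CPM in AE17. Keratinocyte genes had medians between 1.18 and 3.16 CPM in the 4 groups, with 26.7 CPM in AE17 SC tumor 6, which also had the highest share of muscle counts in its group. Mesothelial genes had medians between 1.03 and 10.6 CPM and reached 77.1 CPM in AB1 IPL tumor 2, the tumor with the least muscle signal of its group. Liver genes had medians between 0.06 and 1.49 CPM, and none of the keratinocyte, mesothelial or liver genes tested within a model was called. The part of these tissues in the muscle results was not tested.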

How the data were processed

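Bulk polyadenylated RNA of 32 whole tumors was sequenced as 50-base single-end reads on 3 lanes. According to the study's methods and the submitters' processing notes, the authors demultiplexed with bcl2fastq 1.8.4, aligned to the mouse genome with HISAT2 2.0.4 and counted reads per gene. The deposited values are raw counts per gene. Whether strand was used in counting is not given in the sources used here. Gene positions, exon lengths and overlaps came from the GRCm38 annotation and upstream sequences from RefSeq.

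Groups were taken from the sample labels. Each contrast was fitted on all genes with edgeR 4.0.16 in R 4.3.3 (filterByExpr, TMM, robust quasi-likelihood test) and p-values were adjusted by Benjamini-Hochberg over all genes tested, with a threshold of 0.05. Site contrasts used the 16 tumors of a model and the others all 32. The fit was tested on simulated counts. DESeq2 1.42.0, limma-voom with sample quality weights (limma 3.58.1), other scalings, filters and thresholds, a replicate block, the lane and leaving out single tumors were tried. Fast to slow ratios used CPM divided by exon length, for single pairs only where both genes had at least 3 counts. No 2 tumors of a group were alike within counting noise (chi-square per degree of freedom at least 5.92).

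The members and the gene lists were chosen with earlier results of these data known. All 43 members are named, with full values for the fast and slow pairs, for Actn2 and Actn3, for the 2 most abundant members of each role and for those that failed the filter, differed in direction between models or passed the interaction test. Of other lists at most 4 genes with the highest mean CPM were to be named. Genes named beyond these, for their call or as markers of heart, smooth muscle or other tissue, were chosen after their values were seen. Some results are not reported here. Nothing says that same-numbered tumors share an animal or a day, and p-values set a difference between groups against the spread between tumors.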

Additional observations from a re-analysis of the deposited data

Results flagged for a closer look

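Of 152 groups of 8 tumors screened, 1 for each gene and group, 14 held a tumor whose gap to its nearest neighbor was more than 0.526 of the group's range on the scale of log2(CPM + 0.5), and chance gives about 1 in 20. Of these, 10 were low values in AB1 IPL tumor 2, the tumor with the least muscle signal of its group. It held Neb at 1.724, Mylk2 at 0.5387, Mybpc2 at 4.472, Myom2 at 0.3771, Ttn at 5.226, Actn3 at 2.155, Des at 22.63, Xirp2 at 0.5387, Ryr1 at 2.963 and Trim63 at 0.5926 CPM. The same tumor had the highest mesothelial sum of all tumors, 77.1 CPM, and the part of this in the low muscle values was not tested. AE17 SC tumor 2 was high for the slow troponins Tnnt1 (3.517 CPM) and Tnni1 (2.85 CPM). AE17 IPL tumor 8 was low for Nrap (2.337 CPM), and AE17 SC tumor 8 was the 1 tumor of its group with 3 counts of Myl2 (0.1827 CPM).

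The site difference differed between the models for 25 genes by the interaction test of edgeR. All values below are the AE17 difference minus the AB1 difference on the log2 scale. In the thin filament they were -2.99 for Acta1, -4.14 for Tnnt3, -3.99 for Tnni2, -4.09 for Tnnc2, -2.75 for Neb and -2.81 for Nrap. In the thick filament they were -3.74 for Myl1, -3.16 for Mylpf, -4.55 for Mylk2 and -4.14 for Mybpc2. At the Z disc they were -3.98 for Actn3, -3.87 for Tcap and -4.04 for Smpx. Among calcium handling genes they were -3.40 for Ryr1, -3.76 for Casq1, -3.68 for Cacna1s, -4.80 for Atp2a1 and -5.83 for Pvalb. Among energy genes they were -5.06 for Ckm, -5.79 for Ckmt2, -0.78 for Eno3, -4.44 for Pygm, -3.54 for Pgam2 and -4.48 for Ampd1, and for Trim63 the value was -3.54. None was called with the lane as a covariate.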

How the results depend on the processing

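With the lane as a covariate no gene was called in the AB1 and AE17 site contrasts, the interaction or AE17 against AB1 in IPL tumors (0 in each direction), and 1 was higher in AE17 in SC tumors. Within 1 lane 0 were called in either model. The 34 genes higher in AB1 IPL tumors numbered 23 to 36 under the other settings. The 2 genes higher in AE17 IPL tumors became 5 with DESeq2, 1 with weighted limma-voom, 1 without a filter and 0 at an adjusted p under 0.01. At that threshold the interaction fell to 12 genes, AE17 against AB1 to 1 higher in SC tumors, and to 18 lower and 0 higher in IPL tumors. Without a filter AE17 against AB1 gave 4 higher in SC and 0 higher in IPL tumors, and the latter was also 0 at a log2 fold change of at least 1. Small AE17 site differences changed sign. Mybpc2 was at -0.20 with limma-voom and at -0.37 with the lane as a covariate and within 1 lane. With the lane as a covariate and within 1 lane, Myom2 was at 0.0803 and 0.0785 and Cacna1s at 0.0771 and 0.0766. The cause of these changes was not tested.

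Leaving out 1 tumor at a time gave 32 to 36 genes higher in AB1, 20 to 28 lower in the interaction, 3 to 12 higher in AE17 SC than AB1 SC tumors and 23 to 32 lower in IPL tumors. In AE17 it gave 0 to 4 genes, with 0 without any of IPL tumors 2, 3, 4, 6 and 7 or SC tumors 4 to 8, 1 without SC tumor 3, and 3 or 4 without IPL tumors 5, 1 or 8. Mybpc2 ran from -0.28 to 0.32, Myom2 from -0.31 to 0.22 and Cacna1s from -0.27 to 0.12 in AE17.

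Tumors with the same number were not paired, since their deviations correlated between -0.29 and -0.01 in AB1 and between -0.23 and 0.27 in AE17. A replicate block gave 23 genes higher in AB1, 0 in AE17, 15 lower in the interaction, 3 higher in AE17 SC tumors and 26 lower in AE17 IPL tumors, with Mybpc2 at -0.0445 and Myom2 at 0.0506 in AE17. The detection limit of 3 counts restricts what can be read of Myl2, Myl3 and the tumors with few muscle counts.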
